A study of Homo sapiens with 10 samples.

Results

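Proteasome genes were taken as every row of the expression table whose gene name begins with PSM, a letter from A to G and a number. The rule found 57 rows with 43 distinct names among 19301 named features. Of the 43 genes, 38 had a mean of at least 1 FPKM and were tested together with all other such features, 11574 in all. The 5 genes below that level were PSMB8, PSMB9, PSMB11, PSMA8 and PSMD5. FPKM are fragments per kilobase of transcript, scaled for the size of the library. How that scaling was done is not given in the sources used here. The rule does not reach 5 further rows in which the table joins a proteasome gene to a second gene name (those of PSMA1, PSMA2, PSMA6, PSMB10 and PSMD13), and their values are given apart from the members'.

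Polyadenylated RNA was sequenced from HEK293FT, a human embryonic kidney line that takes up DNA readily, carrying Gaussia and Cypridina luciferase reporters placed in the genome by lentivirus. All cells received dCas9-VP64, a Cas9 without cutting activity joined to a transcriptional activator. INT, P4P6, TOP1 and sgRNA cells also received the guide of that name, directed at the Gaussia reporter and made from a U6-driven plasmid, whereas CasVP cells received no guide. Cells were plated at 125000 per well, transfected 1 day after plating and harvested 3 days after transfection. Every group received 59 ng of dCas9-VP64 plasmid and 679.4 ng of carrier plasmid. Guide groups also received 11.6 ng of guide plasmid, for which CasVP has no entry. Each of the 5 groups had 2 libraries, and expression came from transient transfection, so a culture may hold transfected and untransfected cells. The series describes the guides as modified sgRNAs, and the label TOP1 names a guide, not the gene. Nothing in the labels shows that replicates were grown or transfected separately, and p-values therefore measure only the spread between these samples, which may be technical. In bulk RNA, fewer cells that express a gene and less RNA per cell cannot be told apart.

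The proteasome is the protease that degrades most ubiquitin-tagged proteins in the cytosol and nucleus. Its barrel-shaped core stacks outer rings of PSMA (alpha) subunits on inner rings of PSMB (beta) subunits, of which PSMB5, PSMB6 and PSMB7 cut peptide bonds. The regulatory particle on the barrel's end has a base, where PSMC ATPases unfold the substrate, and a lid of PSMD subunits that removes ubiquitin. Under interferon the catalytic subunits are replaced by PSMB8, PSMB9 and PSMB10, which changes the peptides made for antigen presentation. Activators of the PSME family open the core without ATP, and the PSMG family and some PSMD proteins assist assembly. When proteasomes are short, the transcription factor encoded by NFE2L1 raises proteasome genes together through antioxidant response elements.

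Read counts were not part of the file, so the depth of each library is unknown and no counting intervals are given. Across features, Pearson's r between the libraries of a group was 0.994 to 0.998, where features are not independent replicates. The libraries are named by the index 0 or 1 of their columns, and a pair of values for a group is given in that order. The summed FPKM of named features was 540085 and 522550 in P4P6, the lowest of the libraries, 568567 and 548895 in INT, 598372 and 587132 in TOP1, 596433 and 587614 in sgRNA, and 570540 and 566227 in CasVP. Genes known from HEK293 cells were present, for example LIN28B at 21.9 to 26.6 FPKM.

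Promoter windows of 250 bases before to 50 bases after the transcription start were found in RefSeq (build GRCh38.p14) for 37 of the 43 genes, 45 windows in all. The 6 without a window were PSMA7, PSMB1, PSMB6, PSMB7, PSMD4 and PSMG3. Both strands were searched for CGGAAG, an ETS-type motif, for CCAAT, the NF-Y box, and for TGACNNNGC, the core of the antioxidant response element. CGGAAG was present in 24 of the 45 proteasome windows (53.3%), against 19.5% of 35116 windows of all genes. TGACNNNGC was present in 15 windows (33.3%), against 13.3% of all windows. CCAAT was present in 19 windows (42.2%), against 34.6% of all windows. Some genes gave several windows, and those of PSMA4 and of PSMC5 overlap in part, so windows are not independent. The windows of all genes were not matched to these in expression or base composition. Of the 4 windows printed here, those of PSMA5, PSMB4 and PSMD7 are shown because PSMA5 had the largest log2 difference between P4P6 and sgRNA cells and PSMB4 and PSMD7 the lowest adjusted p-values. PSMD3 is shown because it did not fall, and all 4 were picked after their values were seen. Capitals mark matches on either strand. No matches overlapped.
PSMA5, an alpha subunit, chr1:109426399-109426698, minus strand: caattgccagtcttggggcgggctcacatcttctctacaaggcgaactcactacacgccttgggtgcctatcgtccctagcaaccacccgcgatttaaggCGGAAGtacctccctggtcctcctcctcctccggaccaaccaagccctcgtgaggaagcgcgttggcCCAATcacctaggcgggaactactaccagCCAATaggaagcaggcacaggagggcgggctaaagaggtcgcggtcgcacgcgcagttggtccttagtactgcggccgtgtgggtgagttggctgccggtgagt
PSMB4, a beta subunit, chr1:151399323-151399622, plus strand: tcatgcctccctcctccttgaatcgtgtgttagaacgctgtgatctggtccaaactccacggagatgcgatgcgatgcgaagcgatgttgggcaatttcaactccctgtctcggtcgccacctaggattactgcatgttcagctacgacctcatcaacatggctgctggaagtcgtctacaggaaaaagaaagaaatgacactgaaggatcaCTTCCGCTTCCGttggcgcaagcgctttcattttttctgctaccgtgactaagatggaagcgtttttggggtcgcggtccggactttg
PSMD7, a lid subunit, chr16:74296564-74296863, plus strand: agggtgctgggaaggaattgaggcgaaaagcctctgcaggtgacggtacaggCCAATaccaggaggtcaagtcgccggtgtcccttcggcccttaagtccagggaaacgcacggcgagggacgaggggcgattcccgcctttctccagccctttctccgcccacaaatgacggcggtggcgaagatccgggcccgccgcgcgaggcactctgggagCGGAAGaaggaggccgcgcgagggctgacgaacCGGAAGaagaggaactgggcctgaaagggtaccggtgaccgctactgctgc
PSMD3, a lid subunit, chr17:39980557-39980856, plus strand: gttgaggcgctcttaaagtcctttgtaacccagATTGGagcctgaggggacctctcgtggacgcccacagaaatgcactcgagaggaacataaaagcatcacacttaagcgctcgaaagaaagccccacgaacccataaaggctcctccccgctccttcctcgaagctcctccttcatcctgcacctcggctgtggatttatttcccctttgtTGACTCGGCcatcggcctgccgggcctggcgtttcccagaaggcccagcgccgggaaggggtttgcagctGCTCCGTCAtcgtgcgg
PSMA5 held 1 CGGAAG and 2 CCAAT, PSMB4 held 2 CGGAAG, and PSMD7 held 2 CGGAAG and 1 CCAAT. PSMD3 held 2 TGACNNNGC and 1 CCAAT. Whether a motif goes with the difference between P4P6 and sgRNA cells was not tested. TGACNNNGC was also present in PSMD1, which fell, and in PSME4, which did not fall. It was absent from PSMD2, which did not fall either. A match describes the letters only and is not evidence of a bound factor.

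HEK293FT cells expressed the standard core in every library. The 11 tested core genes ranged in mean level over the 10 libraries from PSMB2 at 84.6 FPKM to PSMB4 at 352 FPKM, a 4.16-fold span, while a single core gene varied little between libraries, with a coefficient of variation of 5.57 to 8.28%. The order of the core genes was nearly fixed. PSMB4, a beta subunit without proteolytic activity, stood above PSMA4 in 10 of 10 libraries. PSMA4 stood above PSMA7 in 9 and PSMA7 above PSMB1 in 9, so each of these pairs changed places in a single library. PSMB6 stood above PSMA3 in only 7 and lay below it in replicate 0 of INT, TOP1 and sgRNA cells.

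PSMA4, the highest of the alpha genes, which form the gated outer rings, stood at 242 and 228 FPKM in INT, 208 and 241 in P4P6, 249 and 256 in TOP1, 249 and 256 in sgRNA, and 234 and 248 in CasVP cells. PSMA7 stood at 201 and 219 FPKM in INT, 213 and 197 in P4P6, 237 and 235 in TOP1, 241 and 237 in sgRNA, and 226 and 228 in CasVP cells. Values for PSMA5 were 194 and 184 FPKM in INT, 164 and 173 in P4P6, 204 and 204 in TOP1, 204 and 209.5 in sgRNA, and 189.9 and 201 in CasVP cells. PSMA4 overlapped between P4P6 and INT cells, whereas the PSMA5 values of P4P6 cells lay below those of every other library. How many of all features share that pattern was not counted, here or for the genes below. In P4P6 cells, 30.6% of all tested features lay below both sgRNA values and 28.1% below both CasVP values. PSMA3, the lowest alpha gene, measured 126 and 122 FPKM in INT, 111 and 117 in P4P6, 135 and 134 in TOP1, 134 and 131 in sgRNA, and 122 and 124 in CasVP cells. Joined rows gave the rest of the ring: the row of PSMA1 with COPB1 was at 175.8 to 209 FPKM, that of PSMA6 with KIAA0391 at 150.2 to 191 FPKM, and that of PSMA2 with C7orf25 at 78.1 to 95.3 FPKM. PSMA8, the testis form of an alpha subunit, did not exceed 0.116 FPKM.

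Among the beta genes, PSMB4 measured 352 and 338 FPKM in INT, 314 and 307 in P4P6, 372 and 382 in TOP1, 378 and 372 in sgRNA, and 359 and 348 in CasVP cells. PSMB1, a structural beta gene, measured 221 and 199 FPKM in INT, 191 and 195 in P4P6, 221 and 228 in TOP1, 229 and 229 in sgRNA, and 210.2 and 204 in CasVP cells. PSMB2, the lowest of the ring, measured 86.1 and 79.6 FPKM in INT, 76.4 and 78.7 in P4P6, 89.8 and 88.7 in TOP1, 88.7 and 87.7 in sgRNA, and 84.9 and 85.7 in CasVP cells. In all of these the P4P6 libraries were the lowest of the 10. The remaining structural gene, PSMB3, ranged from 89.9 to 120.3 FPKM.

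The constitutive catalytic subunits were all abundant. PSMB7, with trypsin-like activity, stood at 200.3 and 187 FPKM in INT, 182 and 174 in P4P6, 217 and 219 in TOP1, 214 and 212 in sgRNA, and 207 and 204 in CasVP cells. PSMB5, the chymotrypsin-like subunit and the target of bortezomib, stood at 138 and 133 FPKM in INT, 131 and 139.8 in P4P6, 145 and 156 in TOP1, 145 and 152 in sgRNA, and 151 and 153 in CasVP cells. PSMB6, with caspase-like activity, stood at 123 and 127 FPKM in INT, 122 and 134 in P4P6, 131 and 138 in TOP1, 124 and 141 in sgRNA, and 140.2 and 143 in CasVP cells. PSMB7 separated P4P6 from all other cells, but PSMB5 and PSMB6 of P4P6 cells overlapped those of INT cells.

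**Figure D1:**
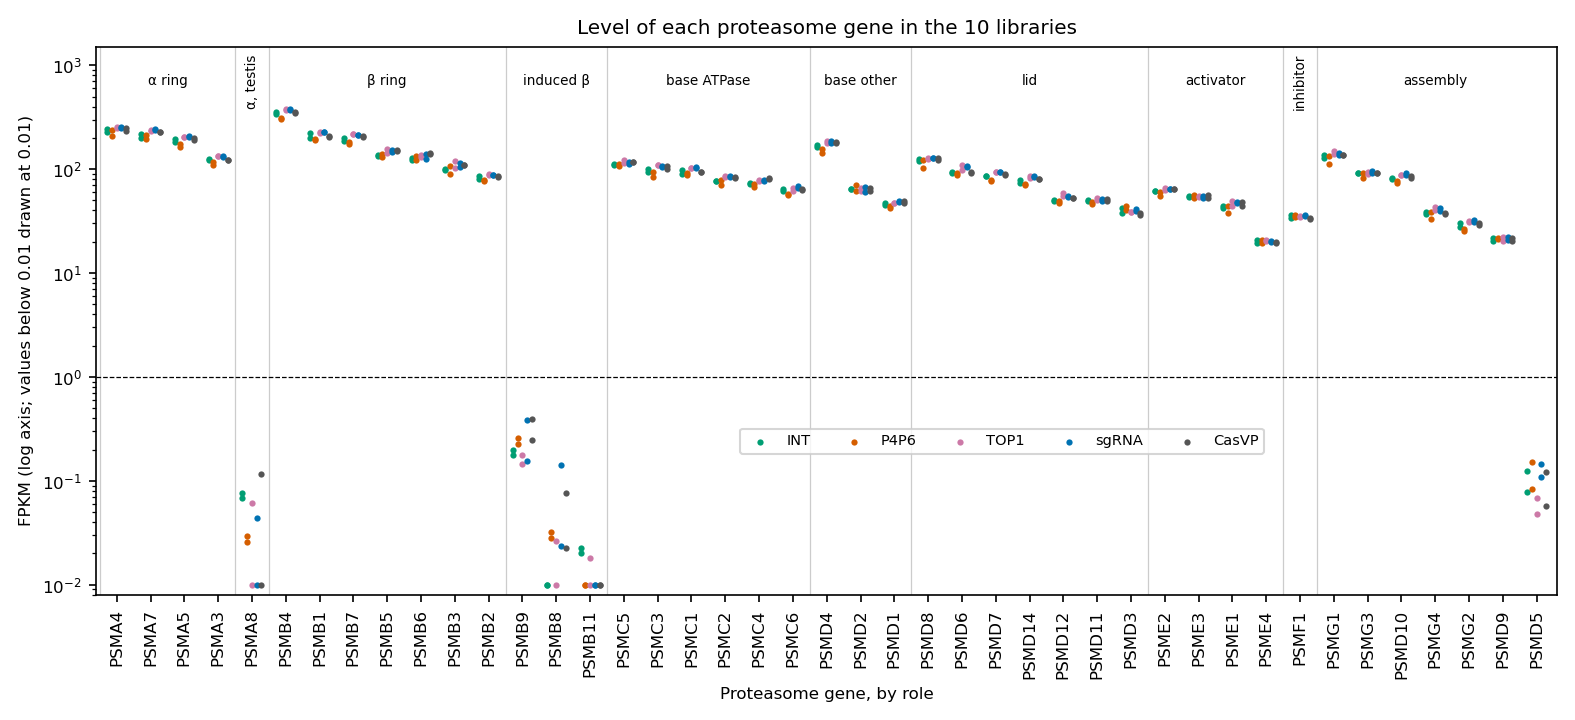
FPKM on a log axis for each of the 43 proteasome genes in the 10 libraries, 1 point per library, coloured by group and ordered by role. For the repeated names PSMB8 and PSMB9, the row with values is drawn. The dashed line marks the level of 1 FPKM needed for testing: 38 genes lie above it, up to PSMB4 at a mean of 352 FPKM, and PSMB8, PSMB9, PSMB11, PSMA8 and PSMD5 lie below it.

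The induced catalytic subunits were near the floor of the table in all 5 groups. PSMB9 was listed at 0.199 and 0.177 FPKM in INT, 0.26 and 0.226 in P4P6, 0.178 and 0.146 in TOP1, 0.154 and 0.385 in sgRNA, and 0.394 and 0.244 in CasVP cells. PSMB8 was listed at 0 and 0 FPKM in INT, 0.0321 and 0.0279 in P4P6, 0.0261 and 0 in TOP1, 0.143 and 0.0238 in sgRNA, and 0.0223 and 0.0756 in CasVP cells. PSMB11, the thymus form, was above 0 in only 3 libraries and did not exceed 0.0223 FPKM. PSMB9 amounted to 0.00105 to 0.00281 of the FPKM of PSMB6, the subunit it replaces, and the range in sgRNA cells overlapped that in every other group. The table holds 8 rows each named PSMB8 and PSMB9, of which 7 each were 0 in every library, so fragments shared between such copies may be lost or split and the low levels are uncertain to that extent. The joined row of PSMB10 with CTRL stood at 2.38 to 3.58 FPKM. Other genes of antigen presentation were not uniformly low: B2M, the light chain of class I molecules, was at 204 to 259.9 FPKM, TAP1, part of the peptide transporter that borders PSMB9 in the genome, at 7.44 to 9.07 FPKM, and NLRC5, the class I transactivator, at 0.222 to 0.376 FPKM.

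Regulatory particle genes stood lower than core genes. Their 16 tested members ranged in mean from PSMD3 at 39.7 FPKM to PSMD4 at 172 FPKM, and the core mean was 2.09 to 2.24 times the regulatory mean in each library. P4P6 replicate 0, at 2.09, lay below the 2.16 to 2.24 of the other groups, and P4P6 replicate 1, at 2.204, lay within it. The 6 ATPase genes, whose products form 1 ring, spanned only 1.81-fold. PSMC5, the highest, stood at 110.2 and 112 FPKM in INT, 108 and 112 in P4P6, 114 and 122 in TOP1, 113 and 117 in sgRNA, and 118 and 117 in CasVP cells. PSMC3 measured 100.2 and 94.5 FPKM in INT, 93.9 and 84.5 in P4P6, 109 and 110.4 in TOP1, 107 and 106 in sgRNA, and 106 and 101 in CasVP cells. The values of PSMC1 were 97.5 and 89.4 FPKM in INT, 88.6 and 91.7 in P4P6, 104 and 103 in TOP1, 104 and 103 in sgRNA, and 93.3 and 94.5 in CasVP cells. PSMC5 overlapped between P4P6 and INT cells, and PSMC3 was lower in P4P6 than in every other library. PSMC6, the lowest ATPase gene, measured 64.7 and 61.1 FPKM in INT, 56.9 and 57.8 in P4P6, 66.6 and 61.9 in TOP1, 68.6 and 65.3 in sgRNA, and 62.9 and 64.1 in CasVP cells. For PSMC4 the values were 72.6 and 73.4 FPKM in INT, 72 and 67.5 in P4P6, 76.6 and 78.7 in TOP1, 76.3 and 79.4 in sgRNA, and 80.6 and 81.9 in CasVP cells. PSMC2 lay between 70.8 and 86.0 FPKM.

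Of the base genes without ATPase activity, PSMD4, a ubiquitin receptor, measured 171 and 163 FPKM in INT, 157 and 142 in P4P6, 179 and 186 in TOP1, 185 and 179.6 in sgRNA, and 182 and 177 in CasVP cells. PSMD1, a large scaffold of the base, measured 47.7 and 45.2 FPKM in INT, 42.2 and 44.6 in P4P6, 47.5 and 47.7 in TOP1, 49.5 and 48.5 in sgRNA, and 47.1 and 49.2 in CasVP cells. PSMD2, the other large scaffold, measured 63.9 and 65 FPKM in INT, 61.3 and 70.2 in P4P6, 61.3 and 66.1 in TOP1, 60.9 and 67.6 in sgRNA, and 62.1 and 66 in CasVP cells. PSMD4 and PSMD1 were lowest in the P4P6 libraries, whereas PSMD2 was highest of all libraries in P4P6 replicate 1.

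In the lid, PSMD8 had the highest level, at 124 and 120.1 FPKM in INT, 121 and 104 in P4P6, 128 and 125 in TOP1, 128 and 128 in sgRNA, and 128 and 124 in CasVP cells. PSMD14, the enzyme that removes ubiquitin chains, measured 78 and 73.3 FPKM in INT, 72.5 and 71 in P4P6, 85.6 and 82.9 in TOP1, 85.5 and 83.8 in sgRNA, and 81.1 and 80.3 in CasVP cells. Its partner PSMD7, which resembles it but lacks enzymatic activity, measured 85.3 and 85.4 FPKM in INT, 77.7 and 78.8 in P4P6, 93.6 and 94.4 in TOP1, 94.1 and 94.9 in sgRNA, and 89.9 and 87.6 in CasVP cells. Both PSMD14 and PSMD7 separated P4P6 from all other cells. PSMD6 measured 94.5 and 92.2 FPKM in INT, 92.2 and 88.2 in P4P6, 110.2 and 98.8 in TOP1, 107 and 104 in sgRNA, and 92.9 and 91 in CasVP cells. PSMD3, the lowest lid gene, measured 41.8 and 37.9 FPKM in INT, 40.2 and 43.8 in P4P6, 38.8 and 38.4 in TOP1, 41.7 and 39.9 in sgRNA, and 36.4 and 37.7 in CasVP cells. PSMD3 was highest of all libraries in P4P6 replicate 1 and lowest in the CasVP libraries. PSMD12 lay between 47.7 and 59.4 FPKM and PSMD11 between 46.4 and 52.4 FPKM. The joined row of PSMD13 lay between 76.6 and 87.3 FPKM.

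The activator and inhibitor genes were present in every library at lower levels than the core. PSME2, whose product forms the interferon-inducible activator ring with that of PSME1, measured 61.2 and 61 FPKM in INT, 55.4 and 60.9 in P4P6, 63.2 and 65.8 in TOP1, 63.9 and 64.6 in sgRNA, and 63.9 and 64.6 in CasVP cells. PSME1 measured 42.1 and 44.1 FPKM in INT, 37.5 and 44.4 in P4P6, 44 and 49.6 in TOP1, 46.9 and 48.5 in sgRNA, and 44 and 48.7 in CasVP cells. PSME1 stood at 0.677 to 0.755 of PSME2 in every library. PSME3, a nuclear activator, measured 55.5 and 54.4 FPKM in INT, 56.6 and 53.1 in P4P6, 55.6 and 53.7 in TOP1, 53.3 and 55.3 in sgRNA, and 52.9 and 56.8 in CasVP cells. PSME4, an activator linked to histone degradation, measured 20.7 and 19.5 FPKM in INT, 19.5 and 20.9 in P4P6, 20.7 and 20.5 in TOP1, 20.1 and 19.7 in sgRNA, and 19.8 and 19.7 in CasVP cells. PSME4 and PSME3 had the lowest coefficients of variation of all 38 tested genes, 2.62 and 2.63%. PSMF1, which encodes a proteasome inhibitor, measured 36.6 and 33.6 FPKM in INT, 36.2 and 34.4 in P4P6, 35.8 and 34.8 in TOP1, 35.9 and 35.8 in sgRNA, and 33.4 and 34.2 in CasVP cells and came next at 3.22%.

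Assembly factors spanned 6.34-fold. PSMG1, which with PSMG2 starts the alpha ring, stood highest at 136 and 129 FPKM in INT, 133 and 113 in P4P6, 149.6 and 141 in TOP1, 142 and 136 in sgRNA, and 136 and 135 in CasVP cells. PSMG2 measured 30.6 and 28 FPKM in INT, 26.5 and 25.3 in P4P6, 31.7 and 31.3 in TOP1, 32.1 and 31.2 in sgRNA, and 30.2 and 28.8 in CasVP cells. PSMD10, a chaperone of the base, measured 81.5 and 79.97 FPKM in INT, 76.2 and 74.3 in P4P6, 88.4 and 88.7 in TOP1, 91.5 and 88.5 in sgRNA, and 82.7 and 86.5 in CasVP cells. PSMG1 was lowest in P4P6 replicate 1 but not in P4P6 replicate 0, whereas PSMG2 and PSMD10 were lowest in the P4P6 libraries. PSMD9, another base chaperone and the lowest tested factor, measured 20.5 and 21.9 FPKM in INT, 21.8 and 21.2 in P4P6, 20.3 and 22.2 in TOP1, 20.9 and 22.4 in sgRNA, and 20.5 and 21.7 in CasVP cells. PSMG4 ranged from 33.0 to 43.6 FPKM and PSMG3 from 82.5 to 95.01 FPKM. PSMD5, also a base chaperone, was listed at 0.0478 to 0.153 FPKM. The annotation behind that row was not checked here, so this low value is uncertain.

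Library medians of the 38 tested genes differed by small amounts between groups. The median of their log2(FPKM + 1) deviations from each gene's mean was -0.13 and -0.11 in P4P6, 0.00 and -0.06 in INT, 0.06 and 0.07 in TOP1, 0.07 and 0.07 in sgRNA, and 0.01 and 0.02 in CasVP libraries. The P4P6 libraries were lowest, TOP1 and sgRNA libraries highest, and the replicates of a group stood close together except in INT. P4P6 had the lowest group mean for 31 of the 38 genes, and sgRNA or TOP1 the highest for 17 and 15 of them. These group orders were not counted over all features. Of 1759 features with a mean of at least 50 FPKM, 1443 had a log2 difference below 0 in P4P6 relative to sgRNA cells. Relative to CasVP cells, 1371 of them did. As a share of all FPKM, proteasome genes made up 0.687 ± 0.0172% in P4P6, 0.692 ± 0.00168% in INT, 0.706 ± 0.0150% in TOP1, 0.705 ± 0.0106% in sgRNA and 0.708 ± 0.00625% in CasVP cells (SD, n = 2 each). The shares of P4P6 libraries overlapped those of every other guide and lay below both CasVP shares.

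**Figure D2:**
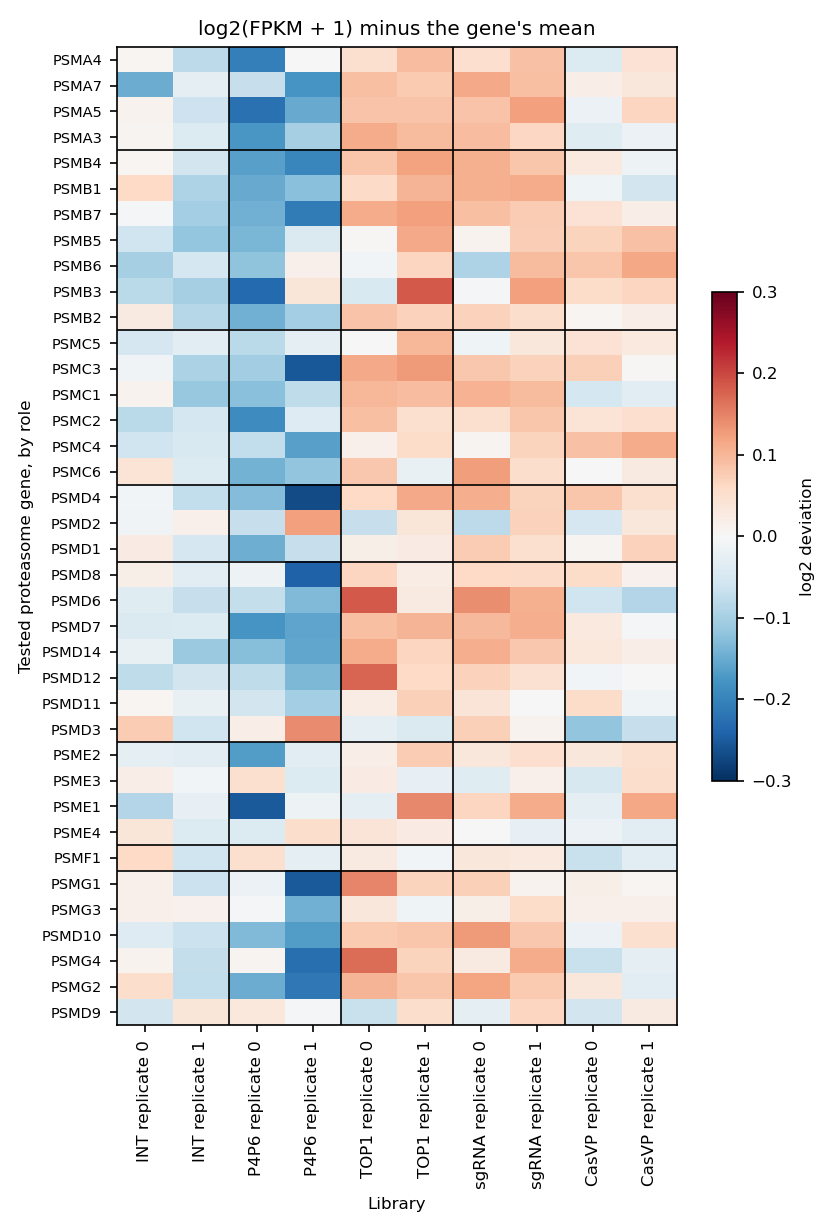
Log2(FPKM + 1) of the 38 tested proteasome genes in each library minus the gene's mean over the 10 libraries, with genes in rows by role and libraries in columns. P4P6 columns are mostly blue, with a median of -0.13 and -0.11, and TOP1 and sgRNA columns mostly red. The rows of PSMB6, PSMD2, PSMD3, PSME3, PSME4, PSMF1 and PSMD9 do not follow.

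P4P6 cells were compared with sgRNA cells, which differ in the guide given with dCas9-VP64. Proteasome genes were lower in P4P6 cells: 17 of 38 fell and 0 rose, at a Benjamini-Hochberg adjusted p under 0.05 in limma. Over all tested features, 7.17% were lower and 4.33% higher by the same rule. The fall was modest, between 11.3 and 18.4% for the 17 genes. The median log2 difference of the 38 genes was -0.18, against -0.01 for all tested features, and 34 of 38 were below 0. At an unadjusted p under 0.05, 28 were lower and 0 higher (17.6% and 12.7% over all tested features), and in 30 the P4P6 values lay below both sgRNA values, the pattern of 30.6% of all features.

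Core genes gave 7 of the 17. PSMA5 averaged 169 ± 6.06 FPKM in P4P6 and 207 ± 3.78 FPKM in sgRNA (SD, n = 2 each), a log2 difference of -0.29 ± 0.0485 (SE, adjusted p = 0.0231). PSMB4 averaged 310.1 ± 4.94 FPKM in P4P6 and 375 ± 4.26 FPKM in sgRNA, with a log2 difference of -0.27 ± 0.0438 (adjusted p = 0.0221). The catalytic subunit PSMB7 averaged 178 ± 5.69 FPKM in P4P6 and 213 ± 1.42 FPKM in sgRNA, with a log2 difference of -0.26 ± 0.0463 (adjusted p = 0.0231). In these 3 genes the groups did not overlap. PSMB1, PSMA7, PSMA3 and PSMB2 also fell, by 15.8, 14.4, 14 and 12.1%. The other catalytic subunits did not pass: PSMB5 had a log2 difference of -0.13 ± 0.053 (adjusted p = 0.124) and PSMB6 of -0.05 ± 0.0669 (adjusted p = 0.636). PSMA4 and PSMB3 did not pass either (adjusted p = 0.115 and 0.276).

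Among regulatory particle genes 8 of 16 fell. PSMD7 averaged 78.2 ± 0.797 FPKM in P4P6 and 94.5 ± 0.526 FPKM in sgRNA, with a log2 difference of -0.27 ± 0.0391 (adjusted p = 0.0221), and PSMD14, its catalytic partner, 71.8 ± 1.01 FPKM in P4P6 and 84.6 ± 1.17 FPKM in sgRNA, with -0.24 ± 0.045 (adjusted p = 0.0246). The ubiquitin receptor gene PSMD4 averaged 149 ± 10.2 FPKM in P4P6 and 182 ± 3.83 FPKM in sgRNA, with a log2 difference of -0.29 ± 0.0534 (adjusted p = 0.0238). P4P6 values lay below the sgRNA values in all of these. The ATPase genes PSMC3, PSMC6 and PSMC1 fell by 16.2, 14.3 and 13%, the lid gene PSMD6 by 14.6% and the base gene PSMD1 by 11.3%. PSMD3 and PSMD2 stood apart in direction, with log2 differences of 0.04 ± 0.0601 and 0.03 ± 0.0732 that did not pass (adjusted p = 0.698 and 0.804) and with overlapping groups. PSMC5 likewise did not pass, at -0.06 ± 0.0467. The shares of core and regulatory genes that fell were not tested against each other, and their medians were -0.22 and -0.18.

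Assembly genes gave the last 2 of the 17: PSMG2, at -0.28 ± 0.0555 (adjusted p = 0.025), and PSMD10, at -0.25 ± 0.0431 (adjusted p = 0.0231). None of the 4 activators passed. PSME1 and PSME2 had log2 differences of -0.22 ± 0.0844 and -0.14 ± 0.0507, while PSME3 and PSME4 were at 0.01 ± 0.0522 and 0.02 ± 0.0529, and PSMF1 at -0.02 ± 0.0528. The joined rows of PSMA6 with KIAA0391 and of PSMA1 with COPB1 were also lower in P4P6 cells, at -0.23 ± 0.0433 and -0.20 ± 0.0489 (adjusted p = 0.024 and 0.0328).

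The 17 calls depended on the scaling, on the groups in the fit and on single libraries. With only P4P6 and sgRNA libraries in the fit, 0 passed, and 0 passed without P4P6 replicate 1, without sgRNA replicate 0 or without sgRNA replicate 1. In each of these fits at most 1 of all features was lower and at most 1 higher. Without P4P6 replicate 0, 20 passed, with 1343 of all features lower and 703 higher. With single libraries left out, the members' median stayed between -0.20 and -0.18 and the log2 difference of PSMA5 between -0.33 and -0.26. Quantile normalization left 1, and rescaling to equal summed FPKM left 0 lower and made PSMD3 and PSME3 higher (log2 0.19 and 0.17). That rescaling, chosen after seeing the data, moved the median of all features to 0.13 and the split of all calls to 92 lower and 2827 higher, against 830 lower and 501 higher as deposited. Quantile normalization gave 90 lower and 298 higher. Relative to the median of all features, the members' median was -0.17 as deposited, -0.15 after the rescaling and -0.08 after quantile normalization. All 17 stayed below 0 under the rescaling, but only 26 members did in all, against 34 as deposited, and PSMB5, PSMB6, PSME2 and PSMF1 were among those that changed sign.

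**Figure D3:**
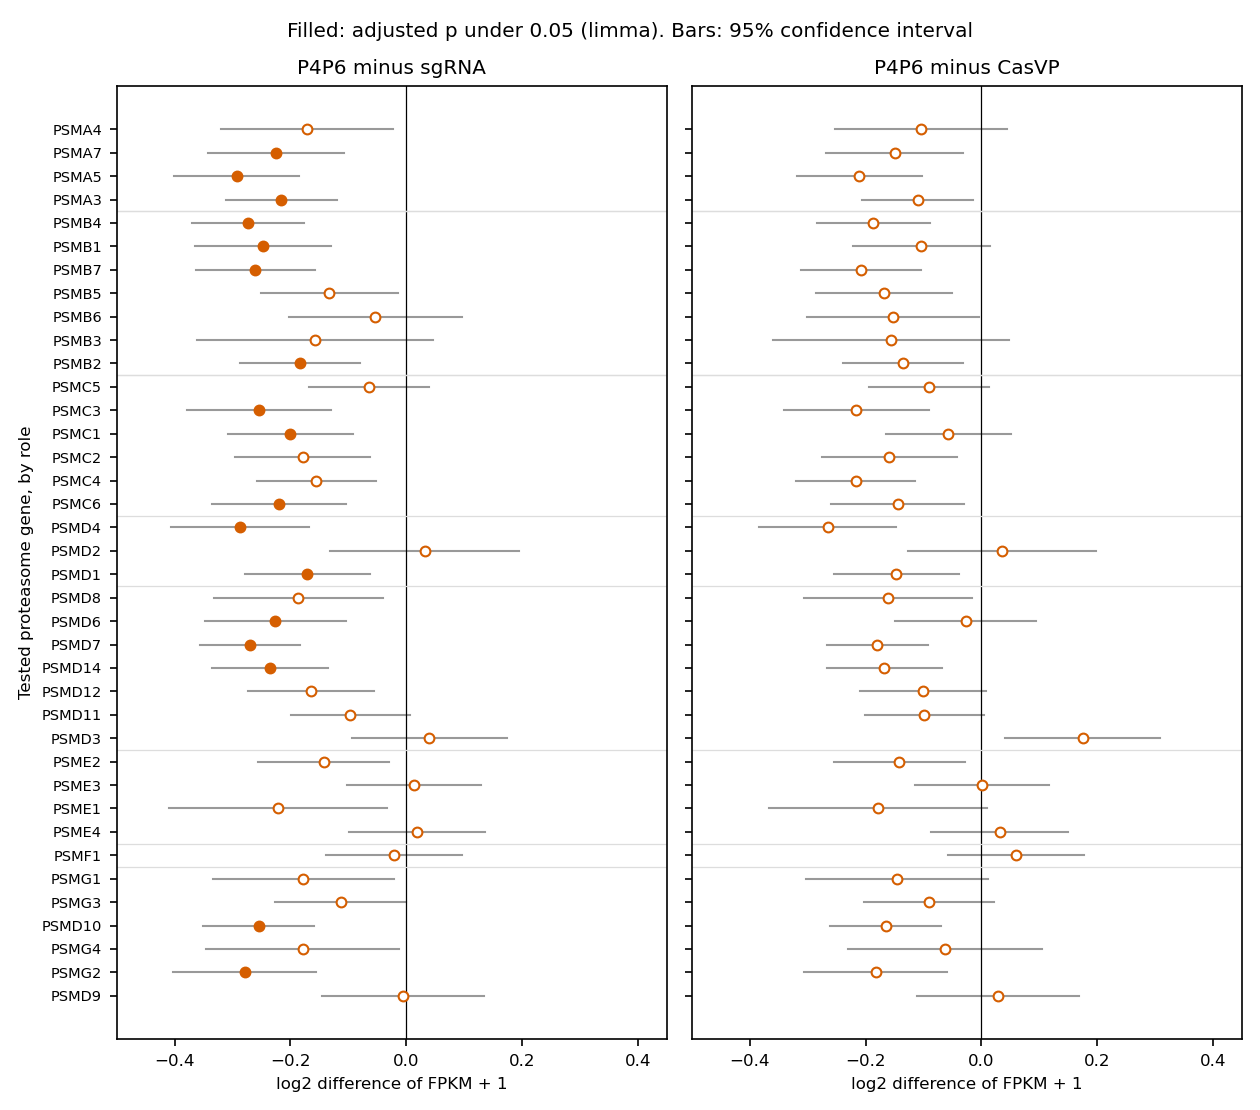
Log2 difference of FPKM + 1 for each tested proteasome gene, P4P6 minus sgRNA on the left and P4P6 minus CasVP on the right, with 95% confidence intervals from limma that are not adjusted over genes. Filled points passed: 17 on the left, all below 0, and 0 on the right, where 32 of 38 points lie below 0.

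Many abundant genes of other kinds were lower in P4P6 cells too. Of 1759 features with a mean of at least 50 FPKM, a limit chosen after the files were seen, 29.8% fell relative to sgRNA cells, with a median log2 difference of -0.14. Of the 29 proteasome genes at that level 15 fell (51.7%), with a median of -0.19, and of the 9 less abundant ones 2 fell (22.2%). Over all tested features 7.17% were lower, and the share among features below 50 FPKM alone was not counted. The 75 ribosomal protein genes, taken by their name pattern at the same later stage, had a median of -0.28, and 59 of them fell. The lower summed FPKM of the P4P6 libraries moves with these values, and its part in the result was not tested beyond the rescaling above.

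**Figure D4:**
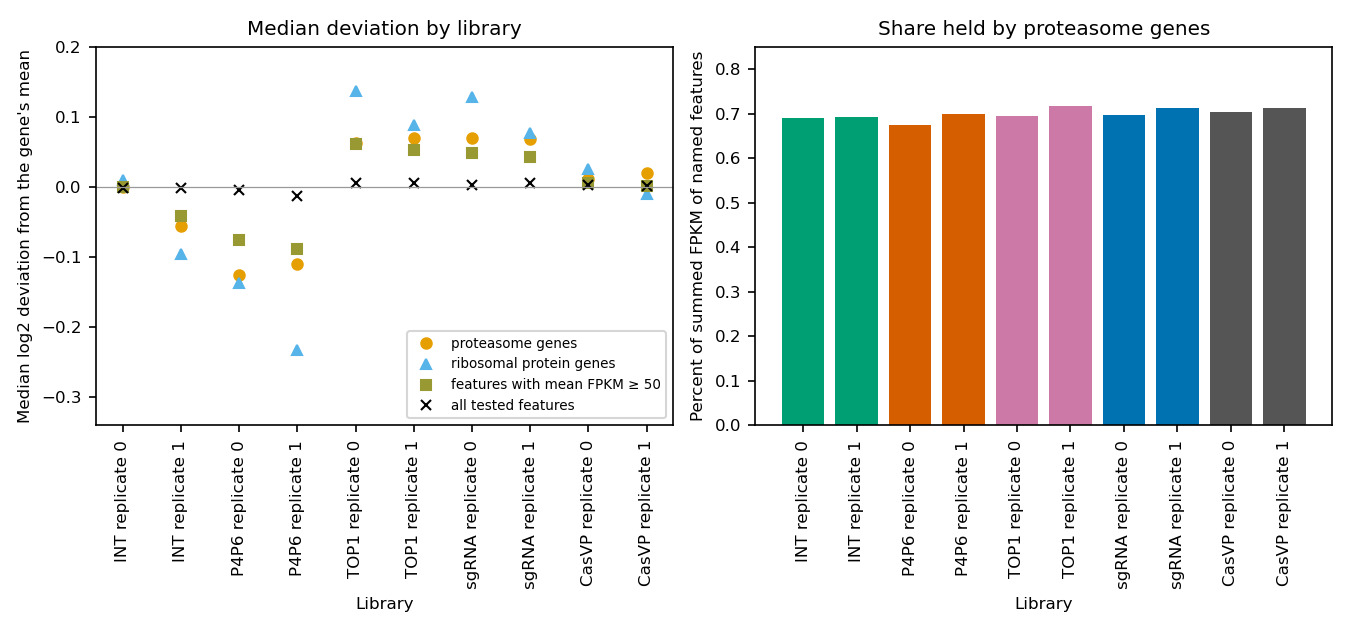
Left, the median log2 deviation of each gene set from its genes' means in each library; right, bars from 0 with the percent of summed FPKM held by proteasome genes. The P4P6 libraries are lowest for proteasome genes (-0.13 and -0.11), for ribosomal protein genes and for features of at least 50 FPKM, whereas all tested features stay near 0 and the share on the right lies between 0.675 and 0.717% in every library.

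Relative to CasVP cells, P4P6 cells had lower values for 32 of the 38 proteasome genes, with a median of -0.15 against -0.01 for all features, but 0 passed in limma (0.00864% of all features passed). Unadjusted p-values under 0.05 were found for 20 genes lower and 1 higher, against 12.9% lower and 9.32% higher over all features. In 28 genes both P4P6 values lay below both CasVP values, as for 28.1% of all features. PSMD4 averaged 149 ± 10.2 FPKM in P4P6 and 179.6 ± 3.12 FPKM in CasVP (SD, n = 2 each), a log2 difference of -0.27 ± 0.0534 (adjusted p = 0.075). PSMC4, an ATPase gene, was at -0.22 ± 0.0462 and PSMB7 at -0.21 ± 0.0463 (adjusted p = 0.075 and 0.075). PSMD3 was the gene higher at an unadjusted p under 0.05, at 0.17 ± 0.0601 (adjusted p = 0.14). Without P4P6 replicate 0, 7 genes passed, all lower, with 534 of all features lower and 230 higher. Rescaling to equal summed FPKM gave a median of -0.05, against 0.08 for all features, and 1 gene passed, higher, with 11 of all features lower and 625 higher. This comparison and that with sgRNA share the P4P6 libraries. Of the 1759 features with a mean of at least 50 FPKM, 1371 were below 0 against CasVP, with a median of -0.09.

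In INT cells no proteasome gene passed against either sgRNA or CasVP cells. The comparison with sgRNA shares its sgRNA libraries with that of P4P6. In it, 35 of 38 genes were below 0, with a median of -0.10, and 0 passed in limma (0.00864% of all features). Without adjustment, 15 were lower and 0 higher at a p under 0.05, against 5.66% lower and 3.11% higher over all features, and 29 did not overlap downward, against 23.3%. PSMA7 was the furthest from 0, at -0.19 ± 0.053, followed by PSMD6 at -0.18 ± 0.0546 (adjusted p = 0.555 for both). The median was -0.07 without INT replicate 1, -0.04 with quantile normalization and -0.02 with rescaling to equal summed FPKM, where that of all features was 0.07. At the other end PSME4 and PSME3 stood at 0.01 ± 0.0529 and 0.02 ± 0.0522. Relative to CasVP cells, the median was -0.04 with 28 of 38 below 0, and 0 passed (0.0173% of all features). There 3 genes were lower at an unadjusted p under 0.05 and 0 higher, against 5.05% and 3.81% over all features, and 16 did not overlap downward, against 23.1%. That median was -0.07 without INT replicate 0, -0.01 without INT replicate 1, -0.03 with quantile normalization and -0.02 with the rescaling. These 3 genes were PSMC4 and the catalytic genes PSMB5 and PSMB6. PSMB5 averaged 136 ± 3.79 FPKM in INT and 152 ± 1.7 FPKM in CasVP, with a log2 difference of -0.17 ± 0.053 (adjusted p = 0.507). PSMB6 averaged 125 ± 2.87 FPKM in INT and 142 ± 2.34 FPKM in CasVP, with -0.18 ± 0.0669 (adjusted p = 0.547). Of the 1759 features with a mean of at least 50 FPKM, 1421 were below 0 in INT against sgRNA, with a median of -0.07. Against CasVP, 1105 of them were below 0, with a median of -0.03.

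No proteasome gene passed between TOP1 and sgRNA cells. Their median log2 difference was -0.0014, 18 genes were above and 20 below 0, 0 passed (0.00864% of all features), and 0 had an unadjusted p under 0.05 in either direction, against 1.16% lower and 0.527% higher over all features. The 95% confidence intervals of all 38 genes lay within 0.22 of 0 on the log2 scale, a fold of at most 1.17. Relative to CasVP cells, TOP1 cells had a median of 0.06 with 31 genes above 0, and 0 passed (0.00864% of all features). There 4 genes were higher at an unadjusted p under 0.05 and 0 lower, against 4.29% and 4.92% over all features, and 21 did not overlap upward, against 24.7%. The largest difference was that of PSMD6, a lid gene, at 0.18 ± 0.0546 (adjusted p = 0.501). In sgRNA relative to CasVP cells the median was 0.05 with 32 genes above 0, and 0 passed (0.0173% of all features). Without adjustment, 6 were higher and 0 lower at a p under 0.05, against 3.23% and 2.79% over all features, and 21 did not overlap upward, against 24%. PSMD6 was furthest from 0, averaging 106 ± 1.72 FPKM in sgRNA and 92 ± 1.31 FPKM in CasVP, with a log2 difference of 0.20 ± 0.0546 (adjusted p = 0.791). The direction of both medians against CasVP depended on the scaling. Quantile normalization gave -0.0031 for TOP1, with 19 genes above 0, and 0.0034 for sgRNA, with 20 above. Rescaling to equal summed FPKM gave -0.0015 for TOP1, with 18 above, and -0.012 for sgRNA, with 17 above, where the median of all features was -0.05 in either comparison. TOP1 against CasVP was at 0.04 without CasVP replicate 0. Abundant features moved by similar amounts. The 1759 with a mean of at least 50 FPKM had a median of 0.05 for TOP1 against CasVP, with 1304 above 0. For sgRNA against CasVP their median was 0.04, with 1296 above 0.

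For all guides together against CasVP cells no proteasome gene passed. The median was -0.02 with 11 genes above and 27 below 0, and 0 passed (0.0173% of all features). Without adjustment, PSMD3 was higher and PSMC4, PSMB6 and PSMB5 were lower at a p under 0.05, against 3.24% higher and 4.19% lower over all features. Confidence intervals of all 38 genes lay within a fold of 1.18.

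Genes that act with the proteasome moved in both directions. In P4P6 relative to sgRNA cells, 5 of 27 tested genes of a list of ubiquitin, shuttle, assembly and regulator genes passed, 3 lower and 2 higher, with a median of -0.05. Over all tested features 7.17% were lower and 4.33% higher. Among those that fell were RPS27A, which encodes ubiquitin fused to a ribosomal protein, at -0.27 ± 0.0533 (adjusted p = 0.025), and NGLY1, which processes the NFE2L1 protein, at -0.24 ± 0.0674 (adjusted p = 0.0466). The joined row of DDI2, the protease that activates the NFE2L1 protein, rose at 0.20 ± 0.0522 (adjusted p = 0.0388). NFE2L1 itself averaged 41 ± 2.57 FPKM in P4P6 and 40.3 ± 0.99 FPKM in sgRNA (SD, n = 2 each), with overlapping groups. POMP, which matures the core, measured 57.6 and 65 FPKM in P4P6, against 68.2 and 70.2 in sgRNA cells and did not pass (adjusted p = 0.119). UBB, a polyubiquitin gene, was at -0.11 ± 0.108. In the other comparisons 0 of the 27 passed in limma, with at most 3 higher and 3 lower at an unadjusted p under 0.05. Both were reached in P4P6 relative to CasVP cells, where 9.32% of all features were higher and 12.9% lower. INT relative to sgRNA cells also had 3 lower, with 0 higher, where 5.66% of all features were lower and 3.11% higher. Of 9 tested genes of antigen presentation 0 passed in any comparison. At an unadjusted p under 0.05, at most 2 were lower, in P4P6 relative to CasVP cells, where 12.9% of all features were lower. At most 1 was higher, in P4P6 relative to sgRNA cells, where 12.7% of all features were higher. B2M came closest in P4P6 relative to sgRNA cells, at -0.21 ± 0.0599 (adjusted p = 0.0507), and TAP1 was at 0.03 ± 0.0847.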

How the data were processed

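The authors deposited a table of FPKM with a column for each library. TopHat2 2.0.13 and Cuffdiff 2.2.1 were run on the build hg19, per the submitters' processing notes. What each tool did, which annotation was used and how libraries were scaled is not given in the sources used here. Column names hold a group and an index of 0 or 1, and no label ties that index to a replicate number. Of 20246 features, the 945 without a gene name were left out. Depth is unknown because the file holds no read counts.

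From these values, log2(FPKM + 1) of features with a mean of at least 1 FPKM was tested with limma 3.58.1 in R 4.3.3 (intensity trend, 1 mean per group, all 10 libraries in the fit, 5 residual degrees of freedom, two-sided, Benjamini-Hochberg adjustment over all 11574 tested features within each of 8 comparisons, threshold 0.05). Fold changes on this scale understate changes of low genes. The step was also run on simulated data with independent noise and no shift shared by abundant genes. That run does not bear on the calls made here. Members, lists, tests and alternatives were chosen with earlier results of these data known. Values in every library are given for the catalytic subunits, activators, PSMF1, members that passed and the highest and lowest tested gene of each role, and each comparison names at most 2 genes in either direction by size of difference; further genes were named after their values were seen. The limit of 50 FPKM, the ribosomal protein pattern, the rescaling to equal summed FPKM and the promoters shown were chosen after seeing the data. Alternatives changed the pseudocount (0.1), the filter (none, or a mean of at least 5 FPKM), the scaling (median of ratios or quantiles), the model (a replicate block, no trend, only the groups compared) and the libraries (each left out in turn). Promoter sequences and their coordinates are RefSeq's on GRCh38.p14, a different build from the authors' hg19. Some genes of the lists are counted but not reported by name here.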

Additional observations from a re-analysis of the deposited data

How the results depend on the processing

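The count of proteasome genes lower in P4P6 than in sgRNA cells, 17 as reported, was 16 with a pseudocount of 0.1, 13 without a filter, 20 at a mean of at least 5 FPKM and 16 with median-of-ratios rescaling. Over all features, 830 lower and 501 higher as reported, these gave 820 and 490, 385 and 256, 946 and 511, and 718 and 531. The members' count was 10 without the trend (328 lower and 340 higher over all features), 1 with quantile normalization and 0 in a fit of those groups alone, and 2 genes, both higher, passed with rescaling to equal summed FPKM, an alternative chosen after seeing the data. Leaving out single libraries gave 0 to 20. Of P4P6 against CasVP, 0 as reported, 1 (higher) passed with that rescaling and 0 to 7 when single libraries were left out. No other comparison gained a proteasome gene under any alternative run. Where a library was left out, the lone library of its group is assumed to vary like the other groups.

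No label ties the column indices to a shared culture, batch or day, so a pairing of libraries was not established. Correlations of deviations between equal indices ran from -0.036 to 0.415 and were over 0.1 in 8 of 10 pairs of groups. With the replicate block, 24 genes were lower in P4P6 than in sgRNA cells (over all features 1439 lower and 887 higher) and 10 were lower than in CasVP cells (377 lower and 223 higher).

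Medians on the log2 scale moved by more than the spread between replicates (0.0185) as follows. Quantile normalization gave -0.0736 (P4P6) and -0.0031 (TOP1) and 0.0034 (sgRNA) against CasVP, and -0.0837 (P4P6) and -0.0368 (INT) against sgRNA. Rescaling to equal summed FPKM gave -0.0173 (INT), -0.0494 (P4P6), -0.0015 (TOP1) and -0.0125 (sgRNA) against CasVP, and -0.0199 (INT) and -0.0255 (P4P6) against sgRNA. Without a filter, TOP1 against CasVP was 0.0267 over all 43 genes. Leaving out single libraries gave -0.0693 to -0.0142 (INT), -0.148 to -0.118 (P4P6) and 0.0361 to 0.0631 (TOP1) against CasVP, and -0.124 to -0.0718 (INT) and -0.200 to -0.181 (P4P6) against sgRNA.

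Signs of single genes that were not called also changed. For P4P6 against sgRNA, quantile normalization gave 0.0085 for PSMB5, 0.0788 for PSMB6 and 0.0236 for PSMF1, and the rescaling 0.0226 for PSMB5, 0.102 for PSMB6, 0.011 for PSME2 and 0.131 for PSMF1. With single libraries left out, PSMB6 ran from -0.147 to 0.0404, PSMD3 from -0.0211 to 0.1004, PSMD2 from -0.0643 to 0.128, PSME3 from -0.0318 to 0.0589, PSME4 from -0.0284 to 0.0658 and PSMF1 from -0.0584 to 0.0166. For P4P6 against CasVP, PSME3 ran from -0.0494 to 0.0518 and PSME4 from -0.0158 to 0.0783. INT against CasVP gave -0.0107 to 0.109 for PSMF1, and INT against sgRNA -0.0096 to 0.0413 for PSME3 and -0.0287 to 0.0494 for PSME4. The ratio of PSMB9 to PSMB6 became 0.00177 to 0.00352 with a pseudocount of 0.1. The cause of these changes was not tested. With 2 libraries a group and unknown depth, a p that misses the threshold does not show equal levels.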
